A study of Mus musculus with 12 samples.

Results

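The hypothalamus of 4 mice homozygous for a mutant Wfs1 allele was compared with that of 4 wild-type mice by RNA sequencing, across every gene with enough counts. These 8 libraries were taken by genotype label from the 12 of the series (homozygous replicates 1, 2, 4 and 5; wild-type replicates 1, 2, 3 and 5). No sample title carries the number of homozygous replicate 5, which was placed by the genotype in its column name, and the homozygous title numbered 3 has no column. The other 4 are heterozygous and entered only the shared estimate of the spread between libraries. The labels give all 12 mice the strain name Wfs1tm1Koks, a targeted allele of 1 line, and separate them by genotype alone, with no further agent or allele. Each library is one individual by the design text, and age and sex are not in the labels used here. The table holds counts for 24020 gene symbols, of which 10737 passed the filter on low counts and were tested.

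Wolframin, the product of Wfs1, sits in the membrane of the endoplasmic reticulum (ER), the compartment where secreted and membrane proteins are folded and where cells store calcium. Loss of wolframin in people causes Wolfram syndrome, with diabetes mellitus, diabetes insipidus and optic atrophy. The hypothalamus is rich in neurons that make peptide hormones, and wolframin is known to limit ER stress signalling in secretory cells. Rn45s is the gene symbol of the long precursor that is cut into the ribosomal RNAs, so its counts come from a multi-copy locus transcribed in the nucleolus.

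Total counts per library were 979394 to 2330872 in homozygous and 1030045 to 1538688 in wild-type mice. The homozygous libraries fell into 2 pairs. Counts of replicates 1 and 2 differed from those of replicates 4 and 5 with a chi-square of 7.77 to 8.21 per degree of freedom over genes, against 2.90 within the first pair and 2.47 within the other, and 2.43 to 3.70 between wild-type libraries. Replicates 4 and 5 also differed in base composition. In each library the log2 CPM (counts scaled to the library's total) of a gene was taken as a deviation from its mean over all 12 libraries. The slope of these deviations on transcript GC content was −0.0475 and −0.0522 in replicates 4 and 5. It was −0.00257 and 0.00178 in replicates 1 and 2, and 0.00256 to 0.0330 in the wild-type libraries, each relative to the mean of the series. This slope is called the composition score below, and no wild-type value overlapped a homozygous one. The labels give no batch. Results are therefore given with all 8 libraries and, where it matters, without homozygous replicates 4 and 5, with an offset per library fitted on GC and adenine content, and with the score as a covariate. The part of the pairs or of base composition in any result was not tested beyond these fits.

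Wfs1 was the gene with the smallest p among all tested. Wild-type replicates had 114, 138, 163 and 167 CPM and homozygous replicates 20.1, 17.5, 14.8 and 15.8 CPM (30, 39, 18 and 14 counts). No homozygous library reached the lowest wild-type library, and Wfs1 was 8.41-fold lower on average (log2 fold change −3.07, standard error, SE, 0.177, edgeR quasi-likelihood adjusted p = 6.96e-11). Wfs1 occupies chromosome 5, 36966104 to 36989205, on the minus strand in mouse build mm10 (ENSMUSG00000039474.13, 8 exons), and counts per gene do not show which part of it the remaining counts come from.

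Rn45s took 0.144, 0.202, 0.191 and 0.100% of all counts in wild-type replicates 1, 2, 3 and 5. It took 0.0302, 0.0337, 0.00861 and 0.00776% in homozygous replicates 1, 2, 4 and 5 (471, 785, 116 and 76 counts). All homozygous shares lay below all wild-type shares, and replicates 4 and 5 were the lowest. Wilson 95% intervals were 0.0276 to 0.0331% in homozygous replicate 1, 0.0314 to 0.0361% in replicate 2, 0.00718 to 0.0103% in replicate 4 and 0.0062 to 0.00971% in replicate 5, and the lowest wild-type interval was 0.0953 to 0.105%. Those intervals cover counting error only. The mean share was 0.159 ± 0.0469% in wild-type and 0.0201 ± 0.0138% in homozygous mice (SD, n = 4 each), a 7.94-fold difference (exact two-sided permutation p = 0.0286, the smallest that 4 against 4 can give). Without homozygous replicates 4 and 5 the difference was 4.99-fold (exact p = 0.133, the smallest that 4 against 2 can give), and Rn45s remained called in the fit across genes (log2 fold change −2.18, edgeR adjusted p = 1.06e-07). In no library did Rn45s exceed 0.202% of the counts, so it moved the scale of other genes little: leaving it out before scaling gave 1499 genes higher and 1220 lower.

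**Figure D1:**
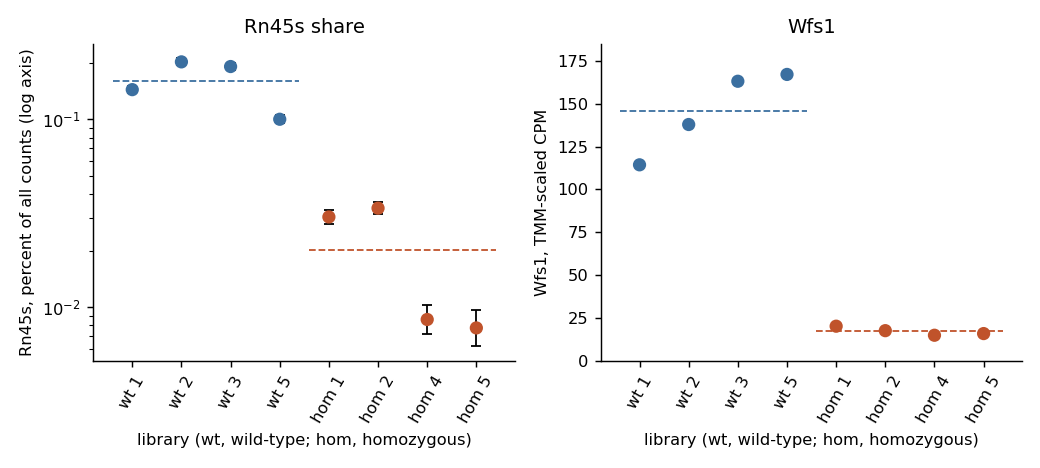
Left, Rn45s as percent of all counts (log axis; bars, Wilson 95% intervals); right, Wfs1 in TMM-scaled CPM; 1 point per library and dashed lines at the group means. All homozygous libraries lie below all wild-type libraries in both panels, and homozygous replicates 4 and 5 have the lowest Rn45s shares (0.00861 and 0.00776%).

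Across the transcriptome, calls in homozygous mice numbered 1475 on the higher and 1248 on the lower side, 13.7% and 11.6% of the genes tested (25.4% together). The median log2 fold change of all tested genes was −0.03, near 0 as the scaling sets it. Called genes that were higher had a median mean level of 114 CPM, those that were lower 41.3 CPM, and all tested genes 34.3 CPM. Higher genes together held 26.0 to 28.8% of the counts in wild-type libraries and 37.2 to 42.5% in homozygous ones, and lower genes 13.03 to 14.9% and 6.37 to 9.35%. The changes were often small: 479 of the higher and 284 of the lower calls were under 1.5-fold, and 298 and 313 were over 2-fold. In bulk tissue, fewer cells of a type and less RNA per cell cannot be told apart, here and in every result that follows.

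The 4 homozygous libraries all lay above the 4 wild-type libraries in 1267 genes and below them in 1268 (11.8% of the tested genes each way), and 1098 of the higher and 965 of the lower calls were of this kind. Without homozygous replicates 4 and 5 there were 810 genes higher and 534 lower (7.15% and 4.71% of 11335 tested), and 751 and 466 of these were among the calls above. The direction was the same in 1474 of the 1475 higher and in all 1248 lower calls. Leaving out wild-type replicate 3 alone gave 1074 higher and 782 lower. With the GC and adenine offset 1234 genes were higher and 946 lower (11.5% and 8.81%, 20.3% together), of which 887 and 587 were shared with the calls above, and with GC content alone in the offset 1314 and 972 (12.2% and 9.05%). With the composition score as a covariate there were 350 higher and 122 lower (3.26% and 1.14%, 4.4% together), of which 306 and 79 were shared. It was computed from these counts and does not overlap between the groups, so a call lost with it can also be lost power. By edgeR on simulated counts, 20.4% of genes with a built-in 1.5-fold change were found, 58.0% at 2-fold and 91.8% at 3-fold. The simulation changed only 49 or 50 of 10522 genes at each of 1.5, 2, 3 and 4-fold. It held no library pairs and no effect of base composition, so these rates need not hold for the present comparison.

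Ppig, Npm1, Gnai1, Syn1, Ctnnd2, Klf9, Cdr1, Nemf, Ankrd12, Dek, Bod1l and Ttc7b had the smallest p among higher genes with a mean of at least 50 CPM. Their log2 fold changes ran from 1.15 (Syn1) to 2.49 (Npm1). Wfs1, Rn45s, Sv2a, Ctsb, Srebf2, Cx3cl1, Pdxp, Zwint, Gpld1, Clcn6, Zc3h4 and Pacsin1 led the lower side. Apart from Wfs1 and Rn45s their log2 fold changes ran from −0.80 (Ctsb) to −1.45 (Pdxp). In all 24 genes the groups did not overlap, and all 24 remained called whichever of the 8 libraries was left out, without homozygous replicates 4 and 5, with the GC and adenine offset and with the composition score. The 24 were chosen by their p in these same libraries, so neither result is separate support for them. Dek, which binds chromatin, stood at 52.8, 58.04, 48.8 and 60.9 CPM in wild-type and 137, 150.4, 239.7 and 247 CPM in homozygous libraries. Ankrd12, a nuclear ankyrin repeat protein, rose by 1.59 (SE 0.161), Bod1l, which protects replication forks, by 1.41 (SE 0.145), and Ttc7b, of the complex that makes phosphatidylinositol 4-phosphate at the cell membrane, by 1.31 (SE 0.138). On the lower side Pdxp, the phosphatase of vitamin B6 phosphate, stood at 75.5, 83.7, 83.8 and 72.1 CPM and 27.5, 39.1, 23.9 and 19.2 CPM. The kinetochore gene Zwint fell by 1.02 on the log2 scale (SE 0.136), Gpld1, which releases GPI-anchored proteins, by 0.89 (SE 0.128) and the zinc finger gene Zc3h4 by 1.11 (SE 0.165). Cdr1 stood at 154, 126, 119.5 and 198 CPM and 481, 694, 923 and 910.0 CPM. Counts under Cdr1 may include a circular antisense RNA of the same locus, since the strand of the counts is not stated. Npm1 has processed pseudogenes, so its counts are uncertain.

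**Figure D2:**
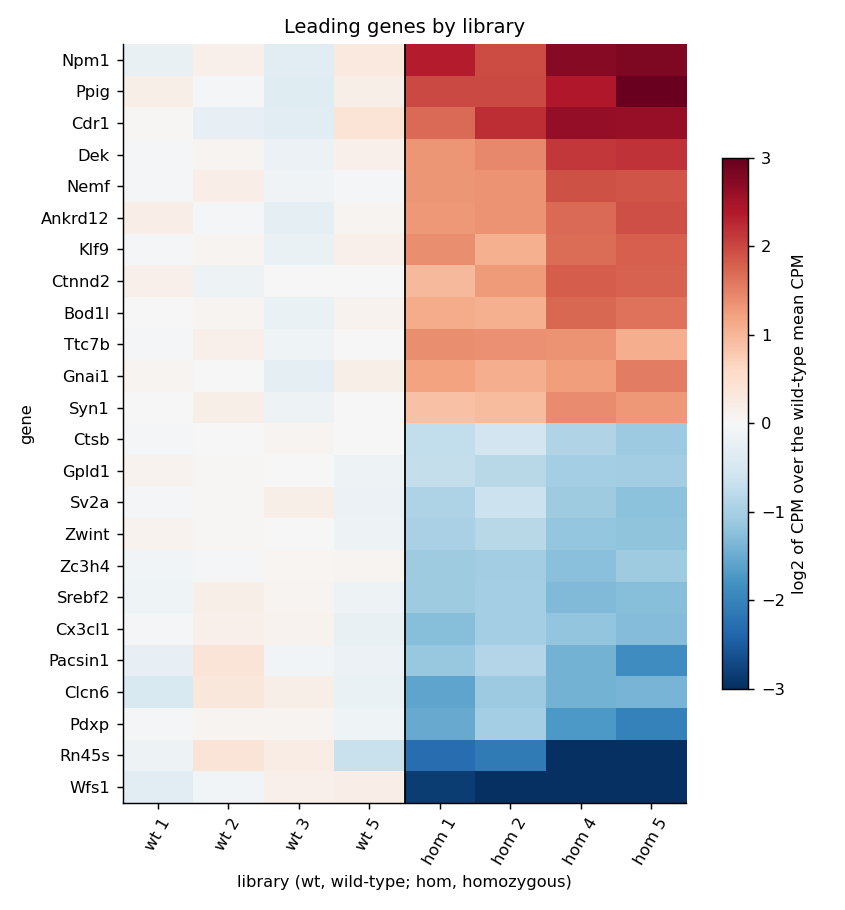
Each row is 1 of the 24 leading genes and each column 1 library (wt, wild-type; hom, homozygous); colour gives log2 of the library's CPM over the wild-type mean, and values past 3 either way are drawn at 3. Wild-type libraries stay near 0, and the 4 homozygous libraries of each gene share 1 direction, which the choice of genes by p favours.

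Among lists of nuclear and RNA-binding proteins, 2 stood far above the 13.7% called higher over all genes and the others nearer to it. Of 18 high mobility group (HMG) proteins and histone chaperones, which bend DNA, loosen nucleosomes or carry histones, 11 rose and 1 fell, with a median log2 fold change of 0.64. Hmgn5, an acidic nucleosome-binding protein, stood at 8.80, 14.3, 13.1 and 25.5 CPM in wild-type and 70.4, 58.4, 92.3 and 113 CPM in homozygous libraries. The groups were far apart, and Hmgn5 rose 5.16-fold (log2 fold change 2.37, SE 0.303, adjusted p = 1.36e-05). Anp32b, an acidic histone chaperone, stood at 48.4, 58.04, 83.1 and 111 CPM and 162, 147, 162 and 198 CPM (log2 fold change 1.12, SE 0.198). Supt16h, a subunit of the histone chaperone FACT, rose by 0.57 on the log2 scale and was not called with the composition score. The list had 9 higher and 0 lower calls without homozygous replicates 4 and 5 (edgeR), 9 and 0 with the GC and adenine offset, and 6 and 0 with the composition score. The falling member was Hira, a chaperone of replication-independent histones (log2 fold change −0.70). Its call ended in 5 of the 8 single omissions of a library (adjusted p up to 0.159), without homozygous replicates 4 and 5, with the offset and with the score.

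SR proteins, a family with arginine-serine repeats that guides the choice of splice sites, were the other list far from the background: 21 of 47 rose and 2 fell, with a median of 0.36. Ppig, a cyclophilin with such repeats, stood at 211, 179.8, 144 and 209 CPM in wild-type and at 729, 733, 989 and 1446 CPM in homozygous libraries. All homozygous values lay above all wild-type values, and those of replicates 4 and 5 were the highest (5.21-fold, log2 fold change 2.38, SE 0.222, adjusted p = 4.1e-07). Pnn, a partner of the exon junction complex, went from 155 ± 36.4 to 468 ± 20.6 CPM (SD, n = 4 each; log2 fold change 1.59, SE 0.171), and Rbm25, a regulator of alternative splicing, rose by 1.27 (SE 0.198). The falling members were the splicing factor Srsf6 (−0.78, SE 0.163) and Scaf1 (−1.22, SE 0.304), which binds the tail of RNA polymerase II. The list held 17 higher and 1 lower calls without homozygous replicates 4 and 5, 16 and 5 under the GC and adenine offset, and 15 and 0 with the composition score. Srsf6 was not called with the score, and Scaf1 was called under none of these 3 settings.

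Other lists of nuclear and RNA-binding proteins were nearer to the background. Of DEAD and DEAH box helicases 6 of 46 rose and 3 fell, of RBM proteins 4 of 29 rose and 2 fell, and of nuclear pore proteins and importins 8 of 49 rose and 5 fell. Mediator subunits had 3 of 29 higher and 4 lower, RNA polymerase II subunits and elongation factors 3 of 25 higher and 1 lower, and mitochondrial ribosomal proteins 4 of 60 higher and 2 lower. Among 18 hnRNP proteins, which coat nascent RNA, 4 rose and 0 fell by edgeR (2 lower at an unadjusted p under 0.05, 0 lower by DESeq2). Hnrnph1 (0.61, SE 0.120) and Hnrnpa2b1 (0.61, SE 0.139) rose with the smallest p (log2 fold changes). Of 39 spliceosomal snRNP proteins 7 rose and 2 fell. Prpf39, a U1 snRNP factor, rose by 1.21 (SE 0.203). The central U5 protein Prpf8 went from 477 ± 35.8 to 344 ± 12.3 CPM (log2 fold change −0.47, SE 0.109). Hnrnpa2b1 was not called without homozygous replicates 4 and 5, and Hnrnph1, Hnrnpa2b1, Prpf39 and Prpf8 were not called with the composition score.

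Of 107 remodellers and histone-modifying enzymes 19 rose and 8 fell (median 0.08). Atrx, a remodeller of heterochromatin, stood at 417, 448, 334 and 466 CPM in wild-type and 818, 795, 1013 and 922 CPM in homozygous libraries, with no overlap (log2 fold change 1.09, SE 0.133, adjusted p = 8e-06). Arid4a, of a histone deacetylase complex, rose by 1.30 (SE 0.157), and Arid5a changed by −1.67 (SE 0.407). Of 277 genes with a Zfp symbol 52 rose and 11 fell (median 0.14). Zfp612 (1.50, SE 0.183) and Zfp329 (1.19, SE 0.155) had the smallest p of the risers, and Zfp532 (−0.59) and Zfp385a (−1.25) of the fallers. The Zfp counts were 22 higher and 2 lower without homozygous replicates 4 and 5, and 23 and 16 under the GC and adenine offset, where the median was 0.01. With the composition score 6 of the 277 were called, each higher, against 3.26% and 1.14% over all genes. Arid5a, Zfp532 and Zfp385a were not called without those replicates or with the composition score, and Zfp385a was not called with the offset.

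Calls in the nucleolus and the translation machinery went both ways, as they did over all genes (13.7% higher and 11.6% lower). Of 65 nucleolar and ribosomal RNA synthesis genes 12 rose (18.5%) and 5 fell (7.69%). Npm1, which encodes the acidic nucleolar protein nucleophosmin, stood at 111, 144, 102 and 159 CPM in wild-type and 665, 500.1, 848 and 899 CPM in homozygous libraries, the largest rise of the list (5.62-fold, log2 fold change 2.49, SE 0.207, adjusted p = 5.8e-08). Ncl, encoding nucleolin, rose by 0.98 (SE 0.138). Rrn3, the initiation factor of RNA polymerase I, went from 74.3 ± 14.03 to 43.95 ± 6.55 CPM, a log2 fold change of −0.75 (SE 0.178), and the ribosomal RNA methyltransferase Nop2 changed by −1.36 (SE 0.328). With the GC and adenine offset 4 genes of the nucleolar list were higher and 7 lower. Rrn3 and Nop2 were not called with the composition score.

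Of 63 translation factors 11 rose (17.5%) and 4 fell (6.35%), against 13.7% and 11.6% over all genes. Eif5b, which joins the ribosomal subunits, stood at 212, 196, 190.2 and 272 CPM in wild-type and 586, 531.6, 726 and 703 CPM in homozygous libraries (2.91-fold, log2 fold change 1.54, SE 0.177, adjusted p = 3.9e-06). Eif3a, the largest subunit of initiation factor eIF3, went from 548 ± 125 to 1429.7 ± 158 CPM (1.38, SE 0.167), while Eif3h of the same complex fell by 0.91 on the log2 scale (SE 0.181). Both are members of 1 complex, but the rule names called genes from both directions of a list. Nemf, a factor of ribosome quality control, rose by 1.64 (SE 0.161). Of 25 cytosolic ribosomal proteins 3 rose and 1 fell, with Rpl15 at 1.27 and Rps21 at −1.45; such genes have processed pseudogenes and their counts are uncertain. Eif3h and Rps21 were not called with the composition score, and the other genes named in this paragraph were.

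Several leading risers have a high share of 4 purine codons, GAA and GAG for glutamate, AAA and AAG for lysine, in their coding sequence. Over the whole coding sequence the share of these codons ran from 6.87% (Syn1) to 33.9% (Dek) in the 12 leading higher genes, and was above the median of called lower genes (11.6%) in all but Syn1 and Ctnnd2. In the 11 coding genes that led the lower side it ran from 6.85% (Pdxp) to 24.6% (Zwint), so the 2 sets overlap. The stretches below show the 30 codons with most of the 4 in the 4 leading higher genes with the highest share and in the 4 leading lower genes with the lowest share, and serve as a description only. They come from GENCODE M21 transcripts (mm10) and are written 5′ to 3′ on the coding strand, without introns, with the 4 codons in capitals.
Dek: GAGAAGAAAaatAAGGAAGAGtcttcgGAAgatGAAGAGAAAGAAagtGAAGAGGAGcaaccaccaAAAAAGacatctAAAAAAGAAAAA
Ppig: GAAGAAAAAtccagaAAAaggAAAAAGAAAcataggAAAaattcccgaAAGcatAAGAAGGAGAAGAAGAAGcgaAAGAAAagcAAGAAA
Ankrd12: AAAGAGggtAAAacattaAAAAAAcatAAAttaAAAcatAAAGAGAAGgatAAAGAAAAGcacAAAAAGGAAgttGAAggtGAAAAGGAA
Npm1: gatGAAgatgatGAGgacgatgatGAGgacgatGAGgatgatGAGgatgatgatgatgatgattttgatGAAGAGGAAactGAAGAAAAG
Pdxp: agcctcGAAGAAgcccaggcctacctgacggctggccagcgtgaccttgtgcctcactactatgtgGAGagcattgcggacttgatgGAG
Gpld1: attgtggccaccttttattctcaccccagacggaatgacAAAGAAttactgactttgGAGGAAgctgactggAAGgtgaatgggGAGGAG
Srebf2: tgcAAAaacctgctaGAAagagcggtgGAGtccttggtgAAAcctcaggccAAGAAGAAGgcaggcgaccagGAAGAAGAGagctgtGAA
Clcn6: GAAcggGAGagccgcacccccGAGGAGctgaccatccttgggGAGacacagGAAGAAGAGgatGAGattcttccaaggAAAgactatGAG
Dek codons 240 to 269 (chr13:47088583-47098211, minus strand, exons 7 to 8 of 11) hold 20 such codons. Ppig codons 222 to 251 (chr2:69741602-69741691, plus strand, exon 10 of 14) hold 19 such codons. Ankrd12 codons 634 to 663 (chr17:65986448-65986537, minus strand, exon 9 of 13) hold 20 such codons. Npm1 codons 159 to 188 (chr11:33157006-33159980, minus strand, exons 6 to 7 of 11) hold 11 such codons. Pdxp codons 259 to 288 (chr15:78918342-78918431, plus strand, exon 2 of 2) hold 4 such codons. Gpld1 codons 546 to 575 (chr13:24979952-24981003, plus strand, exons 18 to 19 of 26) hold 7 such codons. Srebf2 codons 793 to 822 (chr15:82194077-82194918, plus strand, exons 13 to 14 of 19) hold 11 such codons. Clcn6 codons 20 to 49 (chr4:148037914-148038710, minus strand, exons 1 to 2 of 23) hold 11 such codons. The stretch of Npm1, where aspartate codons (gat, gac) fill the gaps between glutamate codons, thus held no more of the 4 codons than those of Srebf2 and Clcn6.

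Over all coding genes tested, calls followed this measure and, more strongly, base composition. In the quintile of coding genes richest in the 4 codons (16.3 to 47.5% of codons), 25.1% were higher and 6.72% lower, with a median log2 fold change of 0.18. In the poorest quintile (up to 9.57%) 9.17% were higher and 16.8% lower, with a median of −0.16. Transcript GC content ranked genes the other way. Of genes in the lowest quintile of GC (up to 43.9%) 29.8% were higher and 1.98% lower, and of those in the highest quintile (55.3 to 71.1%) 2.78% were higher and 26.5% lower, with medians of 0.28 and −0.42. By adenine content, 32.5% of the richest quintile and 2.59% of the poorest were higher. Without homozygous replicates 4 and 5 the medians of the lowest and highest GC quintiles were 0.12 and −0.21. With the GC and adenine offset, which is built to bring them near 0, they were −0.09 and 0.02, and the median of the quintile richest in the 4 codons was 0.08. Level counted too: 34.9% of the quintile of genes with the highest counts were called higher and 11.9% lower, against 2.05% and 8.33% of the quintile with the lowest. Library values of the composition score moved with the groups, as given above, and the part of base composition in the calls was not tested beyond these fits.

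**Figure D3:**
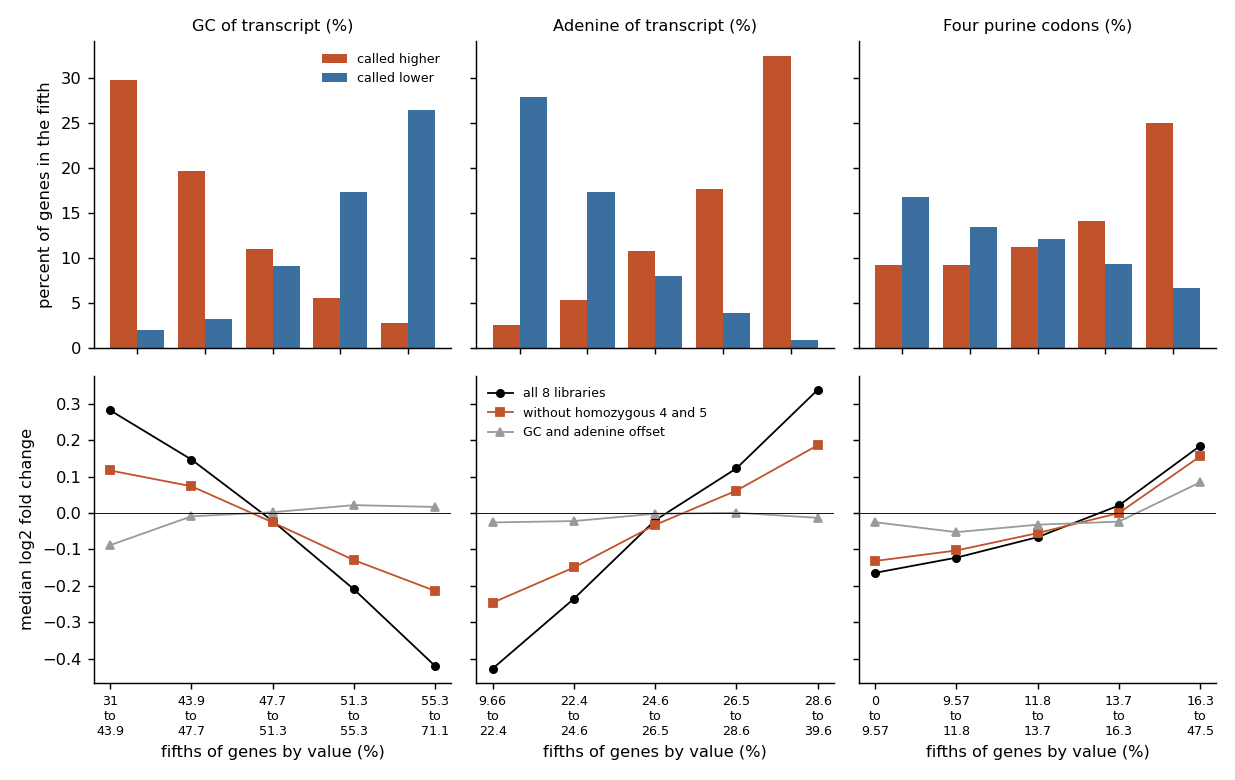
Genes in quintiles of transcript GC content, transcript adenine content and the share of GAA, GAG, AAA and AAG codons (x axes, percent). Top, percent of each quintile called higher or lower in homozygous mice; bottom, median log2 fold change with all 8 libraries, without homozygous replicates 4 and 5, and under the GC and adenine offset. Calls run from 29.8% higher in the lowest to 2.78% in the highest GC quintile.

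Genes on chromosome X leaned higher: 94 of 410 rose (22.9%) and 23 fell (5.61%), with a median transcript GC content of 45.6% against 49.5% over all tested genes. All 8 mice had the Y-linked transcript Ddx3y at 73.6 CPM or more and Xist, the RNA of the inactive X chromosome, at 3.67 CPM or less, a male pattern in both groups. None of the 4 Y-linked genes tested was called by edgeR (1 at an unadjusted p under 0.05, 0 by DESeq2).

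Calls in protein folding and turnover went both ways, and with all 8 libraries the cochaperones leaned higher. Of 35 Dnaj cochaperones, which deliver clients to Hsp70, 8 rose (22.9%) and 2 fell (5.71%), with a median of 0.22. Over all genes 13.7% were higher and 11.6% lower. The list had 5 higher and 1 lower calls without homozygous replicates 4 and 5 (median 0.059). It had 8 and 3 with the GC and adenine offset (median 0.158), and 2 and 0 with the composition score (median 0.055). Dnajc21, a factor of ribosome assembly, stood at 132, 130.3, 126 and 181 CPM in wild-type and 480.1, 399, 428 and 489 CPM in homozygous libraries (3.14-fold, adjusted p = 1.57e-06), and the ribosome-bound Dnajc2 rose by 1.30 (SE 0.183). Of 39 cytosolic and mitochondrial heat shock proteins and chaperonin subunits 7 rose and 6 fell. Hspa4, an exchange factor of Hsp70, went from 449.7 ± 39.9 to 1008 ± 280.1 CPM (1.16, SE 0.150), and Hsph1 rose by 0.96 (SE 0.143). The triage factor Bag6 (−1.30, SE 0.227) and the ubiquitin ligase Stub1 (−1.15, SE 0.231) fell. Bag6 and Stub1 were not called with the composition score.

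Lists tied to the ER, where wolframin resides, held calls in both directions. Of 41 ER chaperones and disulfide isomerases 6 rose and 4 fell (median log2 fold change −0.00498), of 40 genes of ER-associated degradation 5 rose and 8 fell, and of 29 sensors and effectors of the unfolded protein response 2 rose and 4 fell, Wfs1 among the latter. Over all genes 13.7% were higher and 11.6% lower. The chaperone list summed to 4985 to 5153 CPM in wild-type and 6007 to 7683 CPM in homozygous libraries, without overlap. It had 3 calls each way without homozygous replicates 4 and 5, and 2 each way with the composition score. The degradation list had 1 higher and 4 lower, and 0 and 1, in these 2 settings. Hsp90b1, the ER form of Hsp90, stood at 560.3, 636, 717 and 866 CPM in wild-type and 1455, 1404, 2081 and 1849 CPM in homozygous libraries, with no overlap (log2 fold change 1.29, SE 0.142). Pdia3, a disulfide isomerase for glycoproteins, rose by 1.26 (SE 0.160), whereas Txndc5, of the same enzyme family, changed by −0.97 (SE 0.240) and the chaperone Hyou1 by −0.74 (SE 0.191). Derl1, a channel protein of ER-associated degradation, fell by 0.98 on the log2 scale (SE 0.206), and Ubxn6, a cofactor of the p97 ATPase, rose by 0.72 (SE 0.160). Nfe2l2, the transcription factor of the antioxidant response, stood at 47.7, 68.5, 32.8 and 42.3 CPM and 95.9, 90.2, 138 and 111 CPM (log2 fold change 1.19, SE 0.187). Hyou1 was not called without homozygous replicates 4 and 5, and Txndc5, Hyou1, Derl1 and Ubxn6 were not called with the composition score.

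In the ubiquitin system 11 of 45 ubiquitin-specific proteases rose and 4 fell, and 7 of 26 conjugating enzymes rose and 4 fell. Over all genes 13.7% were higher and 11.6% lower. Usp51, a histone deubiquitinase, stood at 13.9, 17.1, 8.02 and 9.32 CPM in wild-type and 26.2, 38.2, 42.01 and 64.4 CPM in homozygous libraries (1.80, SE 0.287). Usp8, which acts on endosomes, rose by 0.82 (SE 0.139), and Fbxw7, the substrate receptor of an SCF ubiquitin ligase, by 1.14 (SE 0.160). Ube2h (−0.95, SE 0.192) and Ube2e2 (−0.89, SE 0.200) fell. Of 37 proteasome subunits 3 rose and 2 fell, with the activator subunit Psme1 at 0.84 and the core subunit Psmb2 at −0.92. With the GC and adenine offset the protease counts were 5 higher and 0 lower (edgeR). They were 6 and 1 without homozygous replicates 4 and 5, and 2 and 0 with the composition score. The conjugating enzymes had 2 and 2, and 1 and 0, in these 2 settings. Ube2h, Ube2e2 and Psmb2 were not called with the composition score.

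Of 54 ARF family GTPases and their regulators, which recruit coats to Golgi and endosome membranes, 20 fell (37.0%) and 7 rose (median −0.29). Over all genes 11.6% were lower and 13.7% higher. Without homozygous replicates 4 and 5 the list had 8 lower calls and 1 higher. Arf3 stood at 758, 807, 922 and 749.6 CPM in wild-type and 551, 522, 425 and 382 CPM in homozygous libraries, with no overlap (log2 fold change −0.78, SE 0.123, adjusted p = 0.000117). Arl10 went from 41.1 ± 7.51 to 16.1 ± 4.51 CPM (−1.32, SE 0.223). Arfip1, an effector of ARF proteins, rose by 1.10 (SE 0.198). With the GC and adenine offset 7 members were lower and 5 higher, and with the composition score 3 were called, each lower. The median with the offset was −0.14. The list's median transcript GC content was 52.8%. Of 38 clathrin and adaptor genes 8 fell and 3 rose, among them the adaptor subunit Ap1s1 (−1.92, SE 0.322) and the membrane-bending Bin1 (−0.89, SE 0.196), with the dynamin Dnm3 rising by 0.54. Arfip1, Ap1s1, Bin1 and Dnm3 were not called with the composition score.

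Rab GTPases, which direct vesicles to their targets, were called 7 times each way among 43, against 13.7% higher and 11.6% lower over all genes. Rab7, of late endosomes, stood at 188, 162, 149 and 193 CPM in wild-type and 375, 385, 345 and 324 CPM in homozygous libraries (1.04, SE 0.128), and Rab9b rose by 1.15 (SE 0.150). Rab1b, of ER to Golgi transport, fell by 1.16 on the log2 scale (SE 0.248) and the endosomal Rab4b by 1.34 (SE 0.314). Rab1b and Rab4b were not called with the composition score.

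The named heterotrimeric G protein genes included close relatives with opposite signs. The rule names up to 2 called genes per direction from each list, so opposite signs among named genes follow from it. Gnai1, an inhibitory alpha subunit, stood at 502, 475, 395 and 535 CPM in wild-type and 1101, 1022, 1135 and 1383 CPM in homozygous libraries (2.43-fold higher, log2 fold change 1.28, SE 0.135, adjusted p = 1.48e-06). Gnai2, another inhibitory alpha subunit, stood at 195, 253, 251 and 221 CPM and 132, 155, 75.8 and 65.5 CPM (log2 fold change −1.06, SE 0.193). The transcript of Gnai1 has 42.5% GC and that of Gnai2 56.7%. The beta subunit Gnb2 changed by −1.91 (SE 0.400), and Rgs20, which shortens G protein signals, by 1.20 (SE 0.195). Of the 44 genes of this list 4 rose (9.09%) and 6 fell (13.6%), against 13.7% and 11.6% over all genes. Gnai2 and Gnb2 were not called with the composition score.

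Of 61 tubulins, actins and microtubule-associated proteins 16 rose and 8 fell (median −0.03), against 13.7% and 11.6% over all genes. The neurofilament genes Nefl (368, 377, 265 and 476 CPM in wild-type, 785, 810.4, 763 and 754 CPM in homozygous libraries) and Nefm (227, 204, 197 and 435 and 923, 966, 722 and 712 CPM) did not overlap between the groups. Their log2 fold changes were 1.07 (SE 0.134) and 1.64 (SE 0.218). Actb, encoding beta-actin, went from 396 ± 30.7 to 260.1 ± 20.5 CPM (−0.60, SE 0.133) and the actin-related dynactin subunit Actr1b changed by −1.03 (SE 0.183). Of 48 kinesin, dynein and dynactin genes 11 rose and 7 fell. Kif2a, which takes apart microtubule ends, rose by 1.08 (SE 0.155), while the kinesin light chains Klc2 (−1.42, SE 0.222) and Klc1 (−0.77, SE 0.143) fell. Actb, Actr1b and Klc1 were not called with the composition score.

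Of 70 genes of synaptic vesicle release 19 were called higher (27.1%) and 15 lower (21.4%), against 13.7% and 11.6% over all genes. Without homozygous replicates 4 and 5 the counts were 12 and 6, against 7.15% and 4.71% over all genes. They were 19 and 9 with the GC and adenine offset. With the composition score they were 2 and 3, against 3.26% and 1.14%. Syn1, encoding synapsin on the vesicle surface, stood at 641, 722, 575 and 635 CPM in wild-type and 1192, 1247, 1716 and 1574 CPM in homozygous libraries (1.15, SE 0.123, adjusted p = 1.57e-06). Sv2a, a vesicle membrane glycoprotein, stood at 461, 488, 541 and 426 CPM and 251, 306, 227 and 204 CPM (−0.94, SE 0.137, adjusted p = 4.43e-05), while its relative Sv2b rose by 0.87 (SE 0.147). In each of these genes all homozygous libraries lay on 1 side of all wild-type libraries. Pacsin1, of synaptic membrane recycling, fell by 1.24 on the log2 scale (SE 0.190) and Scamp5 by 0.98 (SE 0.163). Cx3cl1, the neuronal chemokine that binds the microglial receptor Cx3cr1, went from 192 ± 22.6 to 84.002 ± 7.31 CPM (−1.18, SE 0.154). Sv2b and Scamp5 were not called with the composition score.

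Among receptors and channels, 5 of 15 GABA receptor genes rose and 2 fell, and 2 of 23 glutamate receptor genes rose and 5 fell. Over all genes 13.7% were higher and 11.6% lower. Without homozygous replicates 4 and 5 the GABA receptor counts were 2 higher and 1 lower, and those of glutamate receptors 0 and 4. With the composition score they were 0 and 1 for GABA receptors and 1 and 0 for glutamate receptors. Gabrg3 rose by 1.26 (SE 0.199), and Gabrb1 stood at 53.5, 57.1, 52.5 and 47.9 CPM in wild-type and 30.8, 30.5, 24.7 and 31.6 CPM in homozygous libraries (−0.83, SE 0.177). Gria1, an AMPA receptor subunit, went from 358 ± 27.7 to 254 ± 23.6 CPM (−0.49, SE 0.113) and the delta receptor Grid1 changed by −1.17 (SE 0.261). Of 59 potassium channel genes 7 rose and 10 fell, with Kcnk1 at 0.72 and Kcnh2 at −1.15. Of 30 calmodulin, calcium sensor and CaM kinase genes 7 rose and 5 fell. Calm2, a calmodulin gene, rose by 1.56 (SE 0.176) and Vsnl1 by 1.37 (SE 0.164), and Ncs1, a calcium sensor reported to bind wolframin, fell by 1.06 (SE 0.177). Gabrg3, Gria1, Grid1, Kcnk1, Kcnh2 and Ncs1 were not called with the composition score.

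Cadherin genes were called 26 times higher and 27 times lower among 95, and most of these calls are not separate measurements. The 14 genes of the alpha protocadherin cluster all rose by 0.48 to 0.58 and the 22 of the gamma cluster all fell by 0.44 to 0.64 on the log2 scale, but the members of each cluster share their constant exons. Their levels were accordingly near 1 value: a wild-type mean of 169.9 to 201 CPM for the alpha genes and 244 to 288 CPM for the gamma genes, so each cluster counts as 1. Of the 58 genes outside both clusters 12 rose and 4 fell, and the 1 further entry, Pcdha4-g, which spans both cluster names and is singled out here after its value was seen, fell. Ctnnd2, encoding delta-catenin of the dendrite, stood at 381, 310.2, 341 and 344 CPM in wild-type and 675, 828, 1204 and 1164 CPM in homozygous libraries (1.49, SE 0.157, adjusted p = 1.48e-06). Cdh12 rose by 0.96 (SE 0.186) and was not called with the GC and adenine offset or the composition score. The cadherin list had 6 higher and 22 lower calls without homozygous replicates 4 and 5, so most alpha genes were not called there. It had 24 and 26 with the GC and adenine offset. With the composition score it had 3 and 1, so most genes of both clusters were not called.

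Of 65 protein phosphatase subunits 9 rose and 15 fell, and of 64 genes of the MAP kinase pathway 4 rose and 12 fell. Over all genes 13.7% were higher and 11.6% lower. Without homozygous replicates 4 and 5 each of the 2 lists had 2 higher and 7 lower calls. With the composition score the phosphatases had 2 higher and 3 lower, and the MAP kinase pathway 0 each way. Ppp2ca, a catalytic subunit of phosphatase 2A, went from 216 ± 19.4 to 135 ± 9.10 CPM (−0.68, SE 0.117) and its regulatory subunit Ppp2r5b fell by 1.54 on the log2 scale (SE 0.272). Dusp8, a phosphatase of stress kinases, changed by −0.98 (SE 0.189) and the scaffold Ksr2 by −0.80 (SE 0.167). The lists had 7 and 6 higher and 11 and 9 lower calls with the GC and adenine offset. Dusp8 and Ksr2 were not called with the composition score.

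Of 27 neuropeptide genes tested, 3 rose and 3 fell, against 13.7% and 11.6% over all genes. Somatostatin (Sst), the inhibitor of growth hormone release, stood at 71.1, 186, 128 and 177 CPM in wild-type and 353, 319, 271 and 198 CPM in homozygous libraries (1.03, SE 0.210, adjusted p = 0.00114). Thyrotropin-releasing hormone (Trh) stood at 52.8, 72.3, 87.4 and 59.7 CPM and 28.8, 31.9, 37.1 and 30.5 CPM (−1.08, SE 0.181, adjusted p = 0.00021). In both the groups did not overlap, though wild-type Sst values spread widely. Cholecystokinin (Cck) stood at 43.3, 32.3, 37.2 and 38.5 CPM and 51.6, 96.5, 114 and 55.3 CPM (1.08, SE 0.240). Prodynorphin (Pdyn), which yields opioid peptides, stood at 11.7, 12.4, 8.02 and 6.84 CPM and 2.68, 4.49, 0.824 and 3.39 CPM (−1.63, SE 0.457) and lost its call both with the composition score and without homozygous replicates 4 and 5. Its homozygous values rest on few counts per library.

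Proenkephalin (Penk) rose by 0.44 (SE 0.135), a call that ended with the omission of wild-type replicate 1 or homozygous replicate 4 (adjusted p = 0.0603 and 0.0696), of homozygous replicates 4 and 5 together, and with the composition score. Pro-opiomelanocortin (Pomc), the precursor of melanocortins, overlapped between groups (11.7, 11.4, 17.5 and 22.999 CPM and 12.1, 7.63, 6.59 and 1.13 CPM, −1.12, SE 0.390). Its call ended in 5 of the 8 single omissions (adjusted p up to 0.153), without homozygous replicates 4 and 5, with the offset and with the score. Melanin-concentrating hormone (Pmch), of the lateral hypothalamus, had means of 879.7 ± 137 and 1031 ± 183 CPM (adjusted p = 0.297). Tac1 (log2 fold change 0.53, adjusted p = 0.0529), Adcyap1 (0.34, 0.111), Vgf (−0.29, 0.279) and Cbln1 (−0.18, 0.393) were not called by edgeR.

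Granule proteins and prohormone enzymes had 4 of 24 genes higher and 7 lower, against 13.7% and 11.6% over all genes. The list had 3 higher calls and 1 lower both without homozygous replicates 4 and 5 and with the composition score. It had 5 and 4 with the GC and adenine offset, and 4 and 5 by DESeq2. Chgb, a granin of dense-core vesicles, stood at 574, 502, 625 and 929.9 CPM in wild-type and 1379, 1346, 1442 and 1563 CPM in homozygous libraries (1.12, SE 0.154), and Scg2 went from 1844 ± 171 to 2891 ± 412 CPM (0.65, SE 0.119). Pam, which amidates peptides, fell by 0.41 on the log2 scale (SE 0.109), and the vesicle GTPase Rab3a by 0.57 (SE 0.150). Of 34 receptors for neuropeptides and feeding signals 6 rose and 1 fell. The vasopressin receptor Avpr1a stood at 3.67, 3.81, 1.46 and 3.73 CPM in wild-type and 11.4, 13.02, 22.2 and 22.6 CPM in homozygous libraries (2.37, SE 0.378), and Npy2r, a receptor of neuropeptide Y, rose by 1.17 (SE 0.187). The wild-type values of Avpr1a rest on a few counts per library, so the size of its change is uncertain. Pam and Rab3a were not called without homozygous replicates 4 and 5, and Pam, Rab3a and Npy2r were not called with the composition score. Rab3a was not called with the GC and adenine offset either.

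Of 34 steroid and thyroid hormone receptors and responsive genes 8 rose and 6 fell, against 13.7% and 11.6% over all genes. Klf9, a transcription factor induced by thyroid hormone and glucocorticoids, stood at 103, 114, 93.998 and 120.0 CPM in wild-type and 286, 224, 347 and 376 CPM in homozygous libraries (2.84-fold, log2 fold change 1.50, SE 0.157, adjusted p = 1.48e-06). Dio2, which activates thyroid hormone in tanycytes and astrocytes, rose by 1.62 (SE 0.318), the nuclear receptor Rora by 1.33 (SE 0.261), and the thyroid hormone receptor Thra changed by −1.06 (SE 0.183). Among 16 immediate early genes 1 rose and 3 fell, and Btg2 overlapped between groups (24.2, 20.9, 16.8 and 10.6 CPM and 2.68, 4.49, 4.12 and 13.5 CPM, −1.69, SE 0.416). Of 36 imprinted genes 7 rose and 6 fell, with the zinc finger gene Plagl1 at 1.80 (SE 0.245) and the neuronal proteolipid Nnat at −0.92 (SE 0.191). Dio2, Rora, Thra and Nnat were not called with the composition score.

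Of 160 solute carriers outside the mitochondrial family 8 rose and 28 fell, and of 20 glycolytic genes 1 rose and 7 fell. Over all genes 13.7% were higher and 11.6% lower. Slc19a1, a folate carrier, stood at 11.000, 8.56, 12.4 and 9.32 CPM in wild-type and 1.34, 2.24, 1.65 and 2.26 CPM in homozygous libraries (−2.41, SE 0.422), and the GABA transporter Slc6a11 fell by 1.08 on the log2 scale (SE 0.192). The homozygous values of Slc19a1 rest on a few counts per library. Pkm2, the table's symbol for pyruvate kinase, went from 134 ± 31.4 to 65.9 ± 11.7 CPM (−0.99, SE 0.176), the phosphofructokinase Pfkl changed by −1.65 (SE 0.313), and the brain aldolase Aldoc rose by 0.80 (SE 0.115). With the GC and adenine offset glycolysis had 5 higher and 4 lower calls and the solute carriers 11 and 18. Without homozygous replicates 4 and 5 glycolysis had 1 and 5 and the solute carriers 4 and 15. With the composition score the counts were 1 and 0, and 2 and 2. Of 35 genes of the tricarboxylic acid cycle and pyruvate dehydrogenase 6 rose and 5 fell. Of 70 nuclear-encoded subunits of oxidative phosphorylation 7 were higher and 7 lower, with the ATP synthase subunit Atp5b at 0.87 (SE 0.108) and the complex IV subunit Cox4i1 at −0.98 (SE 0.212), the latter with overlapping groups. Slc19a1, Slc6a11, Pkm2, Pfkl and Cox4i1 were not called with the composition score.

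In the vacuolar proton pump, which acidifies lysosomes and synaptic vesicles, 7 of 17 genes fell (41.2%) and 4 rose (23.5%). Over all genes 11.6% were lower and 13.7% higher. Without homozygous replicates 4 and 5 the list had 2 lower and 4 higher calls. It had 4 and 3 with the GC and adenine offset, and 1 and 3 with the composition score. Within its catalytic head, the subunit A gene Atp6v1a stood at 733, 635, 703 and 783 CPM in wild-type and 1002, 969.7, 1067 and 1115 CPM in homozygous libraries (0.54, SE 0.103). The subunit B gene Atp6v1b2, its partner in that head, stood at 689, 733, 711 and 645 CPM and 496, 453, 397 and 483 CPM (−0.60, SE 0.107). The groups did not overlap in either gene. Their signs were opposite, but the rule names called genes from both directions of a list. Atp6v1g2, of the stalk, rose by 0.56 (SE 0.121) and Atp6v0a1, of the membrane sector, fell by 0.68 (SE 0.128). The transcripts of Atp6v1a and Atp6v1b2 have 44.6 and 50.4% GC. Apart from Atp6v0a1, which the composition score ended, these 4 calls were made with the score as well.

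Among lysosomal genes 5 of 55 rose and 6 fell, against 13.7% and 11.6% over all genes. Ctsb, the protease cathepsin B, stood at 579, 597, 642 and 594 CPM in wild-type and 363, 408, 321 and 283 CPM in homozygous libraries (−0.80, SE 0.121, adjusted p = 6.84e-05), and the calcium channel Mcoln1 fell by 1.47 (SE 0.276). Clcn6, a chloride and proton exchanger of late endosomes, went from 92.3 ± 22.2 to 35.998 ± 5.37 CPM (−1.33, SE 0.193). Of 28 genes of cholesterol synthesis and uptake 2 rose and 6 fell. Srebf2, the transcription factor that drives that pathway, stood at 110.0, 135, 128 and 108 CPM and 57.7, 59.3, 47.8 and 49.7 CPM (−1.15, SE 0.158, adjusted p = 2.43e-05), and its escort protein Scap changed by −0.81 (SE 0.152). Of 37 antioxidant genes 2 rose and 9 fell. Catalase (Cat) stood at 85.1, 92.3, 48.8 and 67.8 CPM and 132, 138, 289 and 355 CPM, highest in homozygous replicates 4 and 5 (1.62, SE 0.263), and the mitochondrial thioredoxin Txn2 fell by 0.85 (SE 0.210). Mcoln1, Scap, Cat and Txn2 were not called with the composition score, and Scap not with the GC and adenine offset either.

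**Figure D4:**
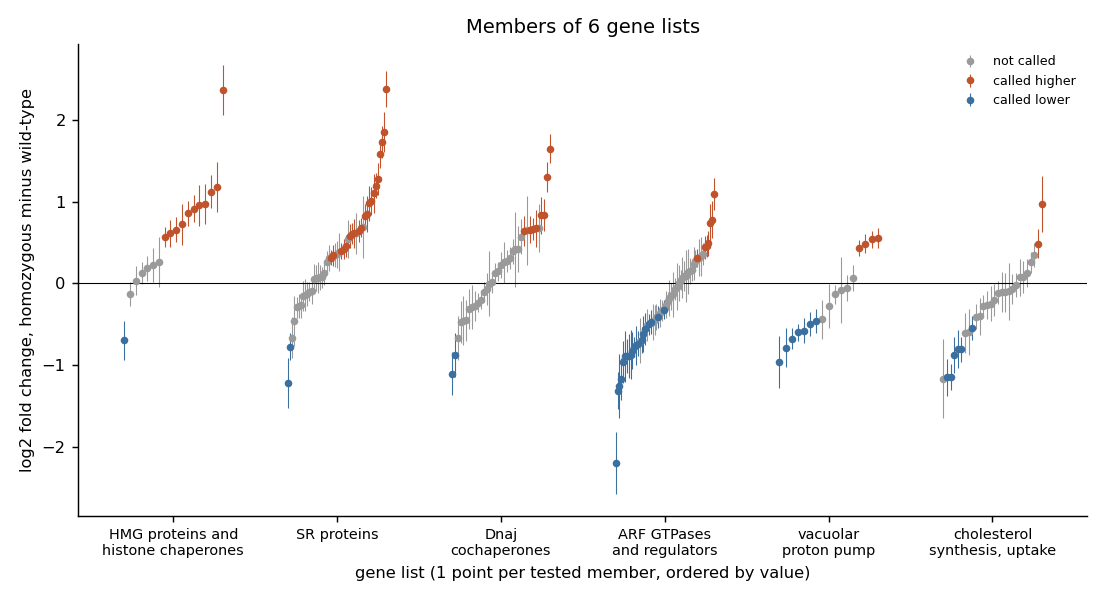
Log2 fold change (homozygous minus wild-type; bars, standard error) of each tested member of 6 gene lists, 1 point per gene, coloured by call. Hmgn5 (2.37) and Ppig (2.38) top the 2 left lists, where called members are nearly all higher, and 20 of 54 ARF genes lie among the lower calls.

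**Figure D5:**
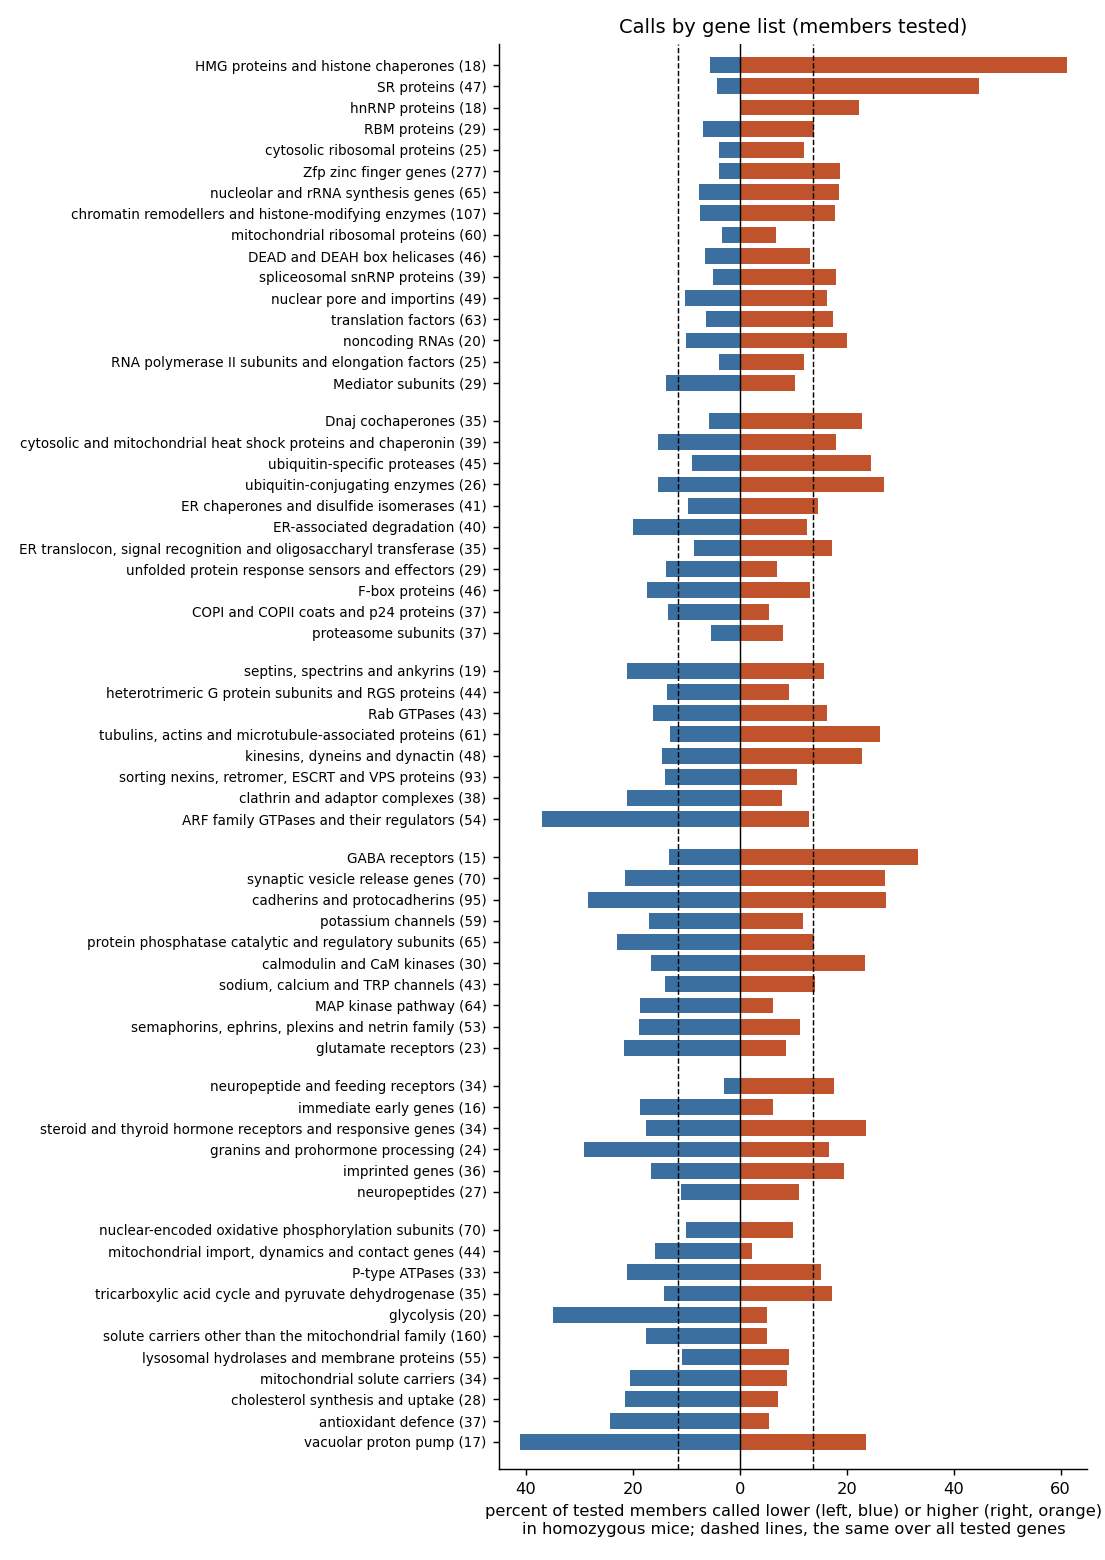
Percent of the tested members called lower (left) or higher (right) in homozygous mice, for the functional gene lists, grouped by theme; dashed lines mark 11.6% and 13.7%, the shares over all tested genes. With all 8 libraries, HMG proteins with histone chaperones and SR proteins reach furthest right, the vacuolar proton pump and ARF genes furthest left.

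Markers of cell types were read beside these lists, over each whole list. Over all genes 13.7% were higher and 11.6% lower, for comparison with the counts that follow. The summed level of the 14 neuronal markers was 6685 to 8265 CPM in wild-type and 9464 to 11964 CPM in homozygous libraries. Of the 14, 6 were higher (Syn1, Nefl and Nefm among them) and 2 lower, with a median log2 fold change of 0.18. The neuronal list had 4 higher and 2 lower calls without homozygous replicates 4 and 5 (median 0.04), against 7.15% and 4.71% over all genes. It had 3 and 1 with the composition score (median 0.04), against 3.26% and 1.14%. With the GC and adenine offset it had 4 and 2 (median 0.17). The 17 astrocyte markers summed to 6101 to 7084 CPM in wild-type and 7157 to 8379.5 CPM in homozygous libraries with 3 higher and 4 lower, and the 18 oligodendrocyte markers in the table to 4162 to 5072 CPM in wild-type and 3134 to 4763 CPM in homozygous libraries with 3 higher and 2 lower of 16 tested. Microglial markers summed to 336 to 382 CPM in wild-type and 343 to 387 CPM in homozygous libraries, and 0 of 9 tested were called by edgeR (0 at an unadjusted p under 0.05, 0 by DESeq2). Endothelial and pericyte markers summed to 282 to 334 CPM in wild-type and 265 to 291 CPM in homozygous libraries, and 2 of 11 tested fell, Vtn (−1.47, SE 0.274) and Pdgfrb (−1.32, SE 0.342), the latter not called with the composition score. Markers of ependyma and tanycytes summed to 168 to 214 CPM in wild-type and 231 to 278 CPM in homozygous libraries, with 2 of 7 tested higher.

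Neighbouring tissues were also checked. Thalamic markers summed to 837 to 1062 CPM in wild-type and 994 to 1353 CPM in homozygous libraries with 3 of 11 tested higher, and telencephalic and striatal markers to 389.8 to 471 CPM in wild-type and 446 to 668 CPM in homozygous libraries with 1 of 11 higher. Pituitary markers summed to 519 to 955 CPM in wild-type and 1356 to 1565 CPM in homozygous libraries, without overlap. Chgb alone, whose values are given above, made up nearly all of these sums, so they say little about the other markers. Of the 2 tested, both of which hypothalamic neurons also express, Chgb was higher and Pomc lower, while Gh, Prl and Pou1f1 had 0 counts in all 8 libraries. Emx1 of the telencephalon was at 0 as well. Hypothalamic transcription factors summed to 274 to 306 CPM in wild-type and 301 to 358 CPM in homozygous libraries, with 31 of 32 counted in at least 1 library (Nkx2-4 at 0) and 1 of 15 tested higher. The part of cell type or of tissue edges in the gene changes was not tested.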

How the data were processed

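RNA from the hypothalamus of single mice was sequenced as paired 75 and 35 bp reads from 50 ng of input, per the labels' protocols. The authors deposited 1 table of raw counts per gene symbol for 12 libraries, and the submitters' processing notes name mouse build mm10. The strand, like the aligner, counter and annotation, is not given in the sources used here. Columns were matched to samples by title, and the homozygous column numbered 5, whose number no title carries, was placed by genotype only.

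Counts were scaled by TMM and filtered with filterByExpr, and all 12 libraries were fitted on genotype with edgeR 4.0.16 in R 4.3.3 (quasi-likelihood F test, contrast homozygous minus wild-type, Benjamini-Hochberg adjusted p under 0.05 over 10737 genes). A gene that passed is said to have risen or fallen, or to have been called. CPM are TMM-scaled, given in the order of replicates 1, 2, 3 and 5 (wild-type) and 1, 2, 4 and 5 (homozygous), and the SE of a log2 fold change is its size divided by the square root of F. The design text gives 4 individuals per genotype, whereas the growth protocol speaks of 5 animals for hypothalamus, and the table does not settle which were left out. P-values measure the spread between these libraries. DESeq2 1.42.0 and the other settings were alternatives. Tests were checked on simulated counts.

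Of the symbols in the table, 20717 matched GENCODE M21 directly and 1895 by an older symbol, which gave transcript composition, exons and coding sequence. The offset was a smooth curve per library on GC and then on adenine content. Protein composition was not analysed here.

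The 78 gene lists, the members and the rule for named genes were chosen with earlier results of these data known. The rule took Wfs1, Rn45s, the 12 called genes per direction with the smallest p at a mean of at least 50 CPM, up to 2 called genes per direction from each list, the sex-linked list and abundant neuropeptides. Provisional gene models were passed over, and 1 list and some genes are not reported here. Lists are described by counts and medians, with no set test. Their counts stand against 13.7% higher and 11.6% lower over all genes.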

Additional observations from a re-analysis of the deposited data

Results flagged for a closer look

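Values of 149 named genes were looked at within each group of 4, and the 20 given here had 1 library far from the other 3, by Dixon's test at its 95% critical value. Chance flags about 1 in 20 groups, and 298 groups were looked at.

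Wild-type replicate 2 stood above the other 3 in Nemf (82.8 CPM against 67.8 to 69.7 in the others). Wild-type replicate 3 stood above the other 3 in Gnb2 (39.3 CPM against 21.1 to 23.8 in the others) and Txn2 (60.5 CPM against 42.8 to 44.7 in the others). Wild-type replicate 5 stood above the other 3 in Arfip1 (31.7 CPM against 24.2 to 24.8 in the others), Dnajc21 (181 CPM against 126 to 132 in the others), Nefm (435 CPM against 197 to 227 in the others), Rbm25 (274 CPM against 189 to 194 in the others) and Vtn (39.8 CPM against 22.6 to 24.9 in the others). Wild-type replicate 1 stood below the other 3 in Penk (118 CPM against 142 to 146 in the others). Wild-type replicate 2 stood below the other 3 in Cox4i1 (94.2 CPM against 160.3 to 167 in the others), Supt16h (189 CPM against 222 to 227 in the others) and Zfp532 (67.6 CPM against 72.6 to 73.6 in the others). Wild-type replicate 3 stood below the other 3 in Avpr1a (1.46 CPM against 3.67 to 3.81 in the others) and Plagl1 (80.2 CPM against 95.3 to 98.0 in the others).

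Homozygous replicate 5 stood above the other 3 in Btg2 (13.5 CPM against 2.68 to 4.49 in the others) and Usp8 (545 CPM against 369.9 to 376 in the others). Homozygous replicate 2 stood below the other 3 in Rgs20 (51.2 CPM against 75.8 to 79.1 in the others). Homozygous replicate 4 stood below the other 3 in Gabrb1 (24.7 CPM against 30.5 to 31.6 in the others) and Zc3h4 (35.4 CPM against 40.2 to 40.9 in the others). Homozygous replicate 5 stood below the other 3 in Atp6v1g2 (701 CPM against 863 to 889 in the others). Of the genes given here, Penk was not called without wild-type replicate 1. The share of counts taken by Rn45s was not set apart in any 1 library of its group by this measure.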

How the results depend on the processing

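DESeq2 gave 1546 genes higher and 1127 lower, DESeq2 size factors in edgeR 1554 and 1184, no filter 1606 and 1243, a mean of 5 CPM 1491 and 1227, the 8 compared libraries alone 1291 and 1004, and the GC offset 1314 and 972. Counts moved by over 1.5 times without homozygous replicates 4 and 5 (810 and 534), with the composition score (350 and 122) and with the block given below that leaves homozygous replicate 5 out. Single omissions gave 1074 to 1638 higher and 782 to 1438 lower. Both were lowest without wild-type replicate 3, where the lower count moved by over 1.5 times. The Rn45s share differed by −0.159 to −0.125 percentage points in single omissions (exact permutation p = 0.0571 each, the smallest that 4 against 3 can give) and by −0.127 without homozygous replicates 4 and 5. The cause was not tested.

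Of the 142 called genes named in the text, 67 were not called with the composition score, 12 without homozygous replicates 4 and 5, 7 with the GC and adenine offset and 0 with DESeq2, and none turned direction in any setting. Genes not called did turn. Pmch changed sign with the GC offset (−0.0821), the GC and adenine offset (−0.23) and the score (−0.14), and Adcyap1 with the score (−0.13). Cbln1 did so with the GC offset (0.16) and the GC and adenine offset (0.21). Vgf did so without homozygous replicates 4 and 5 (0.0285), with the GC offset (0.31), the GC and adenine offset (0.37) and the score (0.32). Ddx3y turned without those replicates (−0.0753), with the GC offset (−0.19), the GC and adenine offset (−0.41, edgeR adjusted p = 0.0251) and the score (−0.38).

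Replicate numbers did not pair the samples: deviations of same-numbered wild-type and homozygous libraries correlated at −0.27, 0.10 and 0.01. The replicate block gave 1180 genes higher and 1004 lower, and 754 and 554 with homozygous replicate 5 in no block, where Ddx3y turned (−0.14). The replicate block with the GC offset gave 1157 and 850, and signs of Pmch (−0.0778), Cbln1 (0.21), Vgf (0.43) and Ddx3y (−0.257) turned. On simulated counts at the totals of these libraries edgeR found 20.4% of 1.5-fold changes, so small changes can be missed. Far fewer genes were changed there than were called here, and no library pairs were built in, so the rate here can differ.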
